A study of Mus musculus with 16 samples.

Results

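Integrins are the surface receptors that tie cells to the extracellular matrix, and laminins are the matrix proteins that lay the base of a basement membrane. The genes described here are the integrin alpha chain genes (Itga), the integrin beta chain genes (Itgb) and the laminin chain genes (Lama, Lamb and Lamc) of the mouse. They were taken by symbol alone, with no measured value, as Itga followed by a number, a single letter or 2b, Itgb followed by a digit, and Lama, Lamb or Lamc followed by a digit. The rule found 37 of 54052 gene entries: 18 integrin alpha chains, 8 integrin beta chains and 11 laminin chains. Of these, 34 held enough counts to be tested among 19141 genes, while Itgad, Itgax and Itgb6 were too low.

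The libraries came from ES-E14TG2a, a mouse embryonic stem cell line whose genotype tag reads WT, carrying a hairpin named shNT, taken here as the control, or one named shBeclin1. Becn1 encodes Beclin1, which autophagy needs to make its membranes. Both hairpins were sequenced in embryonic stem cells at day 0, in embryoid bodies at day 4, at day 10 of CM differentiation in cells tagged as cardiomyocyte, and at day 10 of CM differentiation without GF, also tagged as cardiomyocyte, with 2 libraries in each of the 8 groups. The labels do not spell out GF or state that the CM culture received it, do not say whether the hairpin cells are 1 clone or a pool, and do not say that replicates came from separate cultures, so the p-values measure the spread between these libraries, which may be technical. A tissue tag says heart for every sample, and the batch tag only repeats the group's name, so a batch cannot be told apart from its group. Below, "CM culture" means the day 10 cells labelled CM.

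Levels are given in CPM, counts scaled to the TMM-adjusted library size. Libraries held 14967744 to 21422980 counts, of which the 37 genes took 0.124 to 0.546%. Becn1 was lower in shBeclin1 libraries at all 4 points, from 36.2 and 40.0 CPM in shBeclin1 against 89.3 and 85.2 CPM in shNT libraries at day 0 to 42.7 and 45.2 CPM in shBeclin1 against 63.5 and 60.9 CPM in shNT libraries without GF. Exons of other genes, chiefly Cntd1 on the other strand, cover 43.9% of the exon length of Becn1, and whether counting used strand is not stated in the labels. Cardiomyocyte markers did not follow the cell type tag. The summed level of 13 such markers was 61.8 to 69 CPM in shNT and 5102 to 5422 CPM in shBeclin1 libraries of the CM culture, and 57.1 to 63 against 3841 to 7023 CPM without GF. Replicates differed most in day 0 shNT (chi-square per degree of freedom 7.91) and in shBeclin1 without GF (7.62), against 1.42 to 2.96 in the other groups.

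An integrin is a pair of 1 alpha and 1 beta chain, and the alpha chain largely sets which ligand is bound. A laminin is a trimer of an alpha, a beta and a gamma chain that polymerises on the cell surface with the help of integrins and dystroglycan, and joins collagen IV, nidogen and perlecan into a basement membrane. In the early embryo basement membranes appear with the first epithelia, and cells that leave an epithelium during gastrulation exchange laminin contact for fibronectin contact. In the heart, integrins link the matrix to the contractile apparatus of the cardiomyocyte and to the endothelium.

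**Figure D1:**
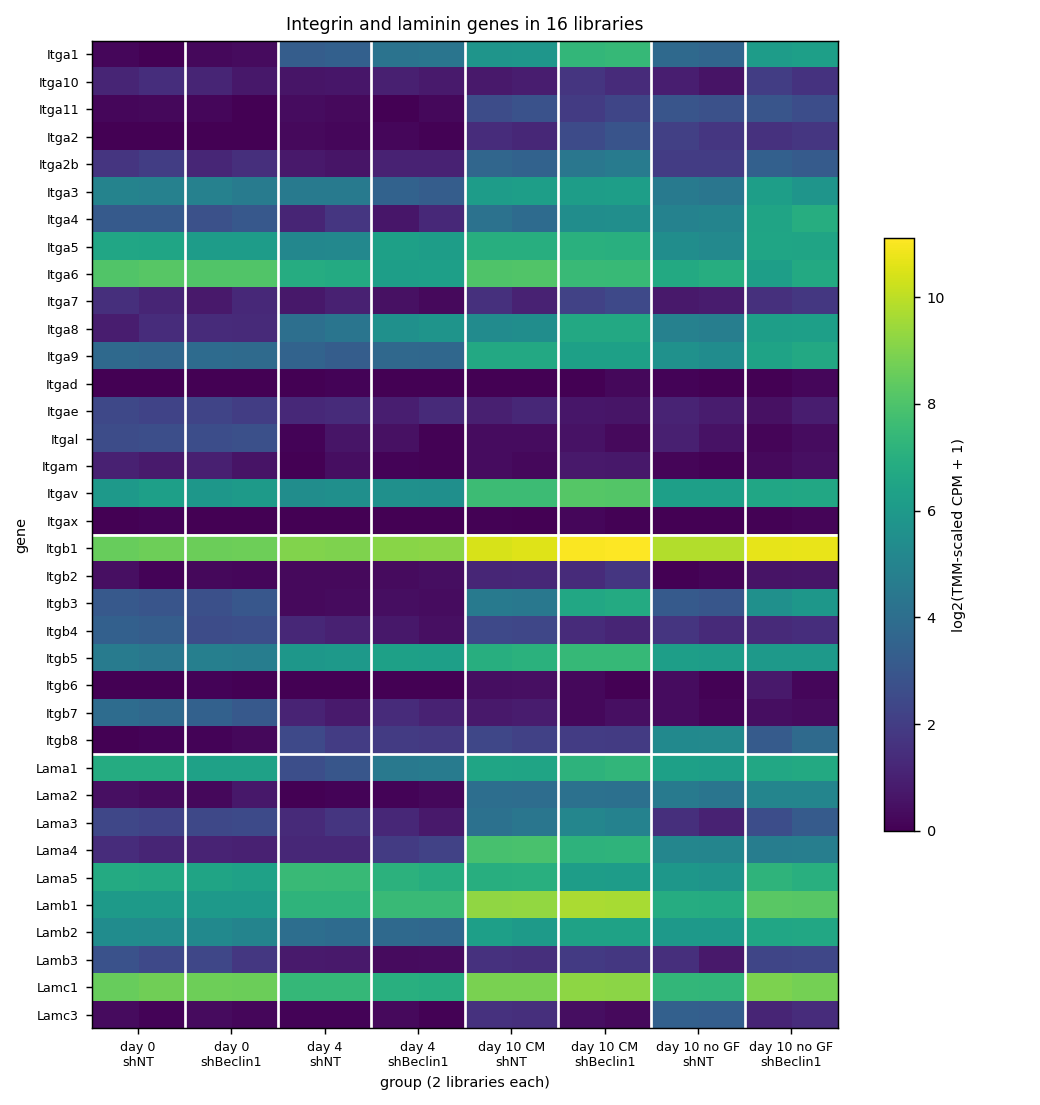
Level of 36 integrin and laminin genes (rows) in the 16 libraries (columns, 2 per group), as log2 of TMM-scaled CPM plus 1. Many rows are darker at day 4 than at day 0 and brighter in the CM culture at day 10.

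Levels of different genes were compared per kilobase of exon, as the share of each chain in its class, with the SD over 2 libraries. Itgb1, the beta chain that pairs with most alpha chains, held 85.9 to 93.6% of the beta chain level in every group. Among alpha chains, Itga6, a laminin receptor chain, led in shNT libraries at every point, with 46.9 ± 1.78% at day 0, 38.3 ± 1.71% at day 4, 26.3 ± 0.366% in the CM culture and 27.1 ± 2.86% without GF. The fibronectin receptor chain Itga5 came second in each of these groups. In shBeclin1 libraries Itga6 led at day 0 with 51.1 ± 0.0503%, but at day 4 it held 20.9 ± 0.231% against 38.4 ± 1.59% for Itga5 and 17.1 ± 1.63% for Itga8. In the shBeclin1 CM culture Itgav (20.7 ± 0.464%) and Itga5 (20.5 ± 0.274%) did not differ beyond their spread and stood above Itga6 (15.4 ± 0.401%), and without GF Itga5 led with 21 ± 1.12%. These orders rest on the exon length used. With the longest transcript as the length, Itga6 led in shBeclin1 libraries at day 4 (31.0% against 30.4% for Itga5), in the CM culture (22.4% against 21.9% for Itgav), and without GF (17.8% against 17.3% for Itga5). With that length Itgav (15.8%) also stood above Itga5 (12.9%) in shNT libraries without GF.

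Laminin alpha chains changed places with time. Lama1, the alpha chain of early embryonic basement membranes, and Lama5, a chain of epithelia and vessels, shared the day 0 level, with 54.3 ± 0.557% and 43.4 ± 0.317% in shNT and 51.4 ± 1.08% and 45.3 ± 1.36% in shBeclin1 libraries. At day 4 Lama5 held 94.5 ± 0.977% in shNT and 80.6 ± 2.54% in shBeclin1 libraries, the rest in the latter being mostly Lama1 (16.8 ± 2.37%). By day 10, Lama4, the chain of vessel and muscle basement membranes, led in shNT libraries of the CM culture with 45.9 ± 0.00848%. There the shBeclin1 libraries held 41.3 ± 1.78% Lama1 and 32.0 ± 0.00495% Lama4, an order that turned with the longest transcript as the length (31.2% and 47.5%). Without GF, Lama1 led in shNT libraries with 46.9 ± 0.931%, while Lama5 (44.1 ± 4.24%) and Lama1 (38.7 ± 2.94%) did not stand apart beyond their spread in shBeclin1 libraries. Lamb1 was the main beta chain from day 4 on, with 52.8 to 89.8%, and Lamc1 was the main gamma chain in every group, with 90.5 to 98.8%.

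**Figure D2:**
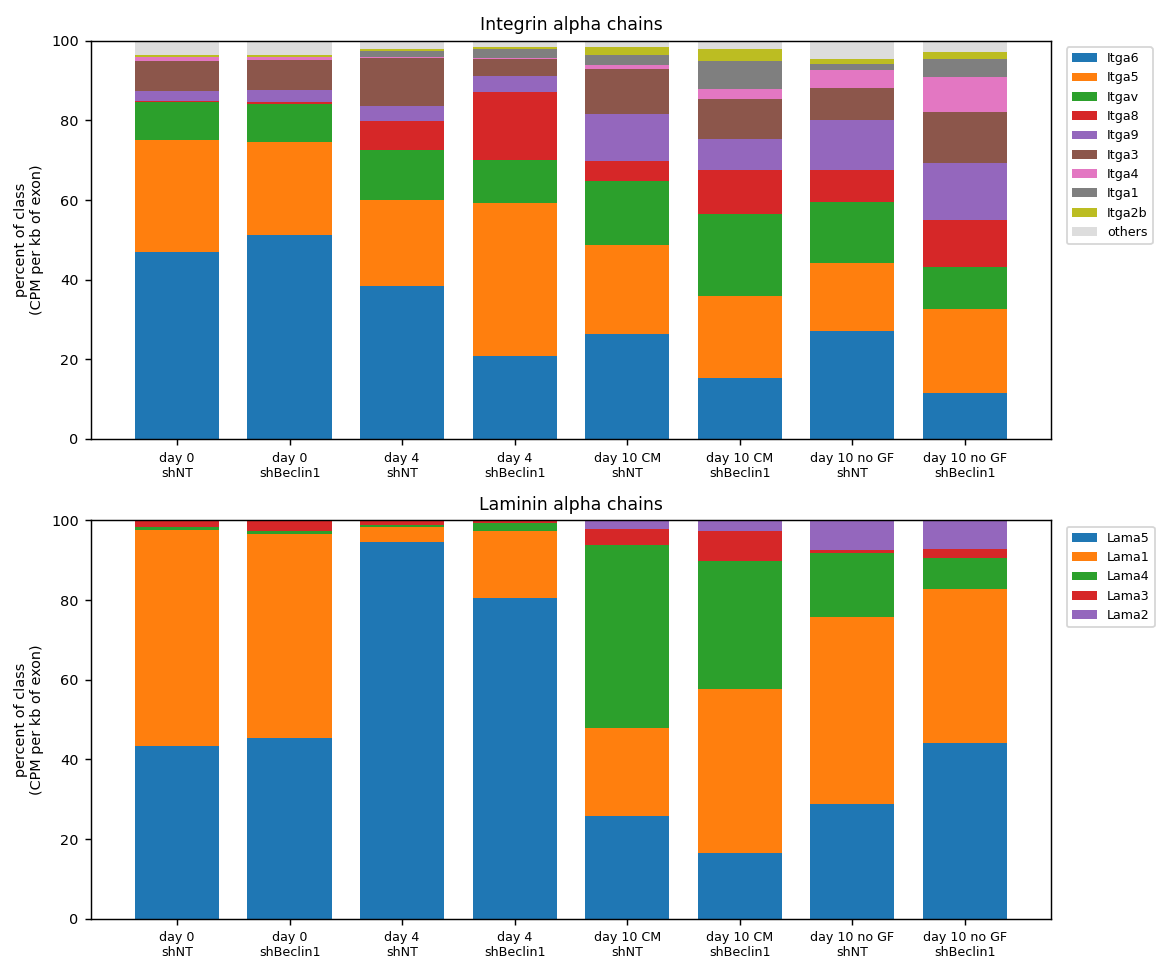
Share of each integrin alpha chain (upper panel) and laminin alpha chain (lower panel) in the summed level of its class, in percent of CPM per kilobase of exon, as the mean of the 2 libraries in each of 8 groups. In shNT the Itga6 share went from 46.9% at day 0 to 26.3% in the CM culture, and the Lama5 share peaked at day 4 with 94.5%.

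In shNT cells 16 of the 34 tested members fell from the stem cell to the embryoid body and rose from there to the CM culture, a sequence seen in 16.7% of all tested genes. Itga10, Itgae, Itgal, Itgam and Itgb7 fell in the first step and were not called in the second. Between day 0 and day 4, 8 of the 34 tested members rose and 21 fell, while 66.9% of all tested genes were called in either direction (34.3% higher, 32.6% lower). The median log2 difference of the members was -1.17, against 0 over all tested genes. Lama1 fell from 113 and 113 to 5.3 and 6.93 CPM, 18.4-fold (log2 difference -4.20, SE 0.10, adjusted p = 1.59e-29) by edgeR. Against that trend, Lama5 rose from 108 and 104 to 180.4 and 179 CPM and Lamb1 from 65.2 and 65.5 to 148 and 149.8 CPM. Itga8, the nephronectin receptor chain, went from 0.831 and 1.69 to 15.8 and 18.7 CPM (log2 difference 3.76, SE 0.19, adjusted p = 1.22e-19). Itga1, a collagen receptor chain with 2 counts in all at day 0, had 269 at day 4, a ratio of 145-fold (95% counting interval 39.9 to 1207). In the other direction, the platelet and vessel integrin chain Itgb3 fell from 7.6 and 6.65 to 0.209 and 0.269 CPM. Leaving out 1 library ended some calls in this step. Without day 0 replicate 1 these were Itga2, Itga3, Itga9 and Lama2, without day 0 replicate 2 Itga2 and Itga10, without day 4 replicate 1 Itga2, Itga10, Itgam, Lama2 and Lama3, and without day 4 replicate 2 Itga9, with adjusted p-values from 0.051 to 0.285.

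Between day 4 and the CM culture at day 10, 26 members rose and 1, Lama5, fell, while 70.0% of all tested genes were called (36.8% higher, 33.2% lower). Their median log2 difference was 1.97, against 0.07 over all tested genes. Lama4 rose most among members with more than 3 counts in each group, from 1.39 and 1.35 to 233 and 237 CPM, 171-fold (log2 difference 7.42, SE 0.12, adjusted p = 5.53e-35). Itgb3 rose from 0.209 and 0.269 to 21.8 and 20.6 CPM, Itga9 from 10.7 and 8.75 to 102 and 102 CPM and Lama1 from 5.3 and 6.93 back to 92.5 and 89.5 CPM. Lama2, the laminin alpha chain of muscle, had 1 count in all at day 4 and 592 at day 10, a ratio of 438-fold (95% counting interval 78.3 to 17326). Lama5 fell from 180.4 and 179 to 122 and 128 CPM (log2 difference -0.52, SE 0.07, adjusted p = 7.38e-08). Scaled by total counts instead, the median over all genes shifted by -0.152 on the log2 scale from day 0 to day 4 and by 0.198 from day 4 to day 10, so the changes given here are relative to the TMM scaling. In these bulk libraries, fewer cells of a type and less RNA per cell cannot be told apart.

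The knockdown comparisons asked at which points shBeclin1 cells differ in these genes from shNT cells. At day 0, none of the 34 members rose and 6 fell by edgeR (among them Itga5, Itgb4, Itgb7, Lama1 and Lama5), with 13.3% of all tested genes called (5.79% higher, 7.55% lower); without shBeclin1 replicate 2 the count was 3. At an unadjusted p under 0.05 there were 11 members, with 26.4% of all tested genes, and DESeq2 called 4. Over all genes, the calls at day 0 numbered 2555, and 1160 and 920 without shBeclin1 replicate 1 and 2. At day 4, 8 rose and 5 fell, with 20.8% of all tested genes called (10.7% higher, 10.1% lower), or 3975 genes, and 2514 to 2644 without any 1 of the 4 libraries. In the CM culture, 17 rose and 8 fell, with 38.4% called over all genes (19.2% higher, 19.1% lower). Without GF, 22 rose and 5 fell, with 54.7% called over all genes (27.3% higher, 27.3% lower). The median log2 difference of the members against that of all tested genes was -0.21 against -0.01 at day 0, -0.07 against 0.02 at day 4, 0.40 against -0.02 in the CM culture and 1.14 against -0.01 without GF. With total counts as the scaling, the share of higher genes among all called went from 43.4 to 23.9% at day 0, from 51.5 to 38.1% at day 4 and from 50.1 to 36.7% in the CM culture, while the members called numbered 9, 12 and 25.

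Over the 4 points, 32 of the 34 members were called at least once, against 71.0% of all tested genes. In both day 10 cultures, 15 were higher in shBeclin1 libraries and 2, Lama4 and Lamc3, were lower, against 12.5% and 10.6% of all tested genes. Itgb5 was higher in the CM culture and lower without GF, and Itga9 and Lama5 were lower in the CM culture and higher without GF; such opposite calls were made for 4.68% of all tested genes. Lama1 and Lama5 were called at all 4 points, as were 2.2% of all tested genes, with signs that changed along the way. The libraries compared at day 4 and day 10 also differed in cell type markers. At day 4 the summed level of 7 primitive streak and mesoderm markers was 777 to 786 CPM in shNT and 1865 to 1866 CPM in shBeclin1 libraries, with 6 called higher. That of 10 parietal and visceral endoderm markers was 23.3 to 25 against 53 to 57.3 CPM at day 4. In the CM culture it was 146 to 159 against 265 to 270.2 CPM, and without GF 84.1 to 90.8 against 358 to 367 CPM. This list did not move as a whole. Of the 9 that were tested, 2 rose and 0 fell at day 4. In the CM culture 3 rose and 3 fell, and without GF 7 rose and 2 fell. The difference in the sum was mostly that of Gata6 at each of these points, so the sums do not stand for the list. Gata6 alone went from a shNT mean of 16.8 to a shBeclin1 mean of 44.9 CPM at day 4. It went from 9.16 to 132 CPM in the CM culture, where Thbd went from 34.3 to 10.6 CPM, and from 0.838 to 205 CPM without GF. The part of either list in the results for Itga1, Itga5, Itga8, Lama1, Lamb1, Lamc1 and Fn1 was not tested. All 13 cardiomyocyte markers, whose sums are given above, were called higher in shBeclin1 libraries of both day 10 cultures. Their part in any day 10 knockdown result given here was not tested. Other markers stand beside the gene groups below.

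**Figure D3:**
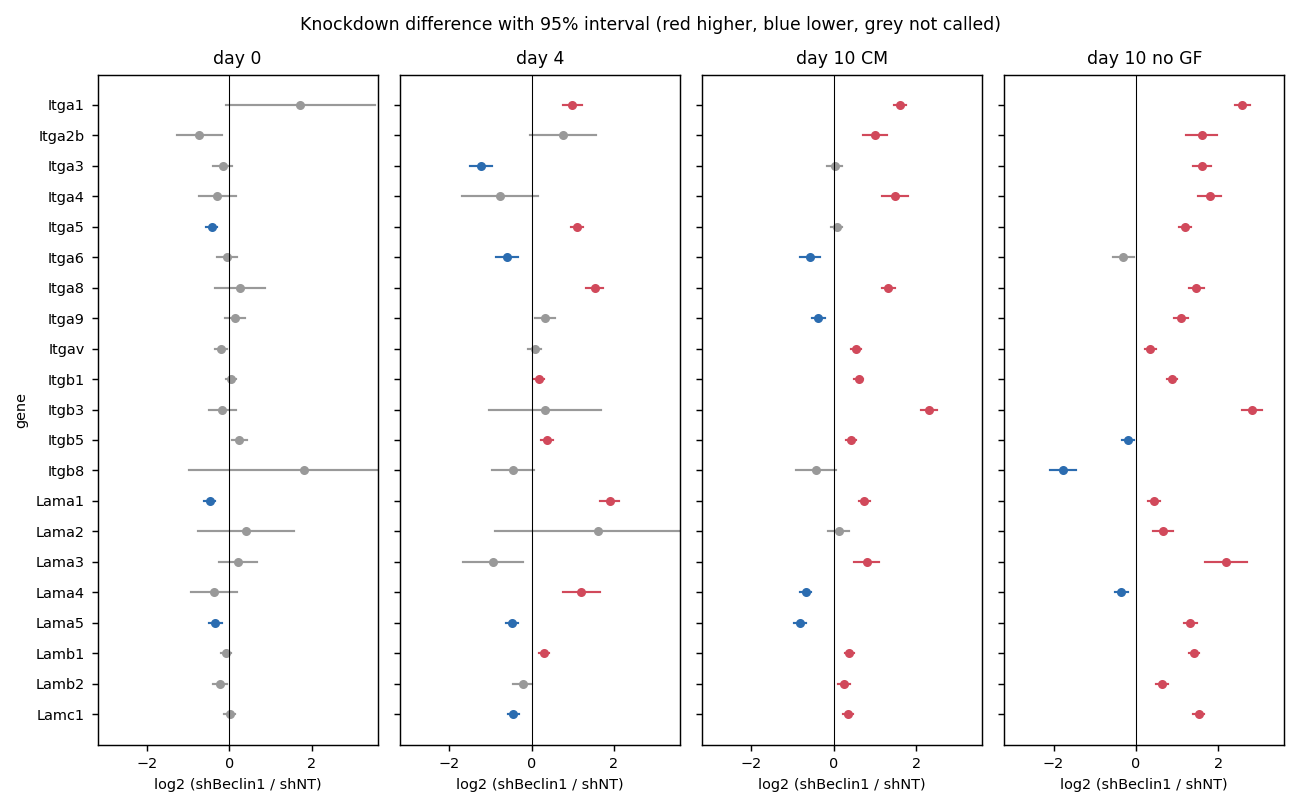
Knockdown difference of 21 integrin and laminin genes, as log2 of shBeclin1 over shNT with its 95% interval from the edgeR fit, at day 0, day 4, in the CM culture and without GF; red is called higher, blue called lower and grey not called, and the intervals of Itga1 and Itgb8 at day 0 and of Lama2 at day 4 run past the axis. Few points leave 0 at day 0, while without GF 17 of the 21 lie to the right in red.

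Itgb1, the common beta chain without which mouse embryos do not develop past implantation, was called higher in shBeclin1 libraries at every point but day 0. At day 0 it stood at 369 and 406 CPM in shNT and 393 and 404 CPM in shBeclin1 libraries, and the groups overlapped (adjusted p = 0.736). In the embryoid bodies it stood at 553 and 578 CPM in shBeclin1 against 513 and 489 CPM in shNT libraries. That difference was called by edgeR (log2 difference 0.17, SE 0.06, adjusted p = 0.0416) but was lost with total counts as the scaling (adjusted p = 0.171) and on leaving out any 1 of the 4 day 4 libraries (0.0778 to 0.32). The CM culture had Itgb1 at 2120.5 and 2194 CPM in shBeclin1 against 1364 and 1490 CPM in shNT libraries. Without GF it measured 1629.9 and 1697 CPM in shBeclin1 against 915 and 891 CPM in shNT libraries. Both shBeclin1 libraries lay above both shNT libraries in each day 10 culture, by 1.51-fold (log2 difference 0.60, SE 0.06, adjusted p = 2.46e-10) and 1.84-fold (log2 difference 0.88, SE 0.06, adjusted p = 5.18e-15). The difference was larger without GF by edgeR's interaction test (difference of log2 differences -0.29, adjusted p = 0.0089), a call lost without shNT replicate 2 of the CM culture (0.0869).

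Among the laminin-binding alpha chains, Itga3 changed sign between day 4 and the culture without GF, and Itga6 was lower at day 4 and in the CM culture. Itga3, the chain of epithelial and kidney basement membrane receptors, was not called at day 0, with 28.1 and 23.7 CPM in shBeclin1 against 30.0 and 28 CPM in shNT libraries and overlapping groups (adjusted p = 0.411). In embryoid bodies it stood at 10.4 and 8.57 CPM in shBeclin1 against 21.9 and 22.3 CPM in shNT libraries, a fall of 2.35-fold (log2 difference -1.23, SE 0.14, adjusted p = 9.85e-08). Its level in the CM culture was 70.8 and 74.6 CPM in shBeclin1 against 69.9 and 73.3 CPM in shNT libraries, with overlapping groups (adjusted p = 0.883; 95% interval of the log2 difference -0.17 to 0.21). Without GF it stood at 72.7 and 54.5 CPM in shBeclin1 against 22.1 and 19.6 CPM in shNT libraries and was 3.04-fold (log2 difference 1.60, SE 0.11, adjusted p = 4.96e-13) higher. The interaction test separated the knockdown difference at day 4 from that at day 0 (-1.07, adjusted p = 0.000111), the CM culture from day 4 (1.25, adjusted p = 1.52e-06) and the CM culture from the culture without GF (-1.58, adjusted p = 1.1e-09).

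Itga6, which mouse embryonic stem cells use to bind laminin, was not called at day 0, with 274 and 273 CPM in shBeclin1 against 269 and 299.5 CPM in shNT libraries. At day 4 it stood at 74.7 and 74.8 CPM in shBeclin1 against 116 and 109 CPM in shNT libraries, with the groups apart (log2 difference -0.59, SE 0.14, adjusted p = 0.00821). Leaving out shNT replicate 1 (adjusted p = 0.0555) or either shBeclin1 library (0.0566 and 0.0577) ended that call. Itga6 in the CM culture was 1.5-fold lower (log2 difference -0.58, SE 0.12, adjusted p = 0.00259), at 180.2 and 175 CPM in shBeclin1 against 262 and 270 CPM in shNT libraries. Without GF it stood at 73 and 107 CPM in shBeclin1 against 107 and 118 CPM in shNT libraries; the second shBeclin1 library reached the lower shNT library and the difference was not called (adjusted p = 0.0619). Itga7, the laminin receptor chain of muscle, stayed between 0.223 and 4.51 CPM. It was higher in shBeclin1 libraries of the CM culture (3.54 and 4.51 against 1.88 and 1.08 CPM, adjusted p = 0.000262) and without GF (1.94 and 2.48 against 0.682 and 0.802 CPM, adjusted p = 0.000643). Itgb4, which pairs with Itga6 in the hemidesmosomes of epithelia, was lower in the CM culture, with 1.61 and 1.23 CPM in shBeclin1 against 4.42 and 4.09 CPM in shNT libraries (log2 difference -1.59, SE 0.27, adjusted p = 6.36e-06). Its calls at day 0 and day 4 were each lost without 1 library. At day 0 that held for shNT replicate 1 (adjusted p = 0.0641) and shBeclin1 replicates 1 (0.085) and 2 (0.0574), and at day 4 for each of the 4 libraries (0.0554 to 0.362).

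Epithelial markers differed between the same libraries. The summed level of 8 epithelial markers, with Krt5 and Krt14 at or near 0, was 1303 to 1307 CPM in shNT and 796 to 815 CPM in shBeclin1 libraries at day 4, 713 to 734 against 428 to 429.7 CPM in the CM culture and 171 to 184 against 629 to 738 CPM without GF. Of the 6 that were tested, 1 rose and 4 fell at day 4, none rose and 5 fell in the CM culture, and 5 rose and 1 fell without GF. The chains did not all follow that order: Itga3 was not called in the CM culture, and Itga6 and Itgb4 were not called without GF. Of the epithelial anchoring laminin chains, Lama3 was higher in both day 10 cultures and Lamb3 without GF alone. The part of the epithelial markers in the results for Itga3, Itga6, Itgb4, Lama3, Lamb3 and Lama5 was not tested.

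Of the collagen-binding alpha chains, Itga1 was higher in shBeclin1 libraries at day 4 and in both day 10 cultures. At day 0 Itga1 had 7 counts in shBeclin1 and 2 in shNT libraries, a ratio of 3.57-fold (95% counting interval 0.68 to 35.2). At day 4 it stood at 17.5 and 19 CPM in shBeclin1 against 8.71 and 9.69 CPM in shNT libraries, 1.99-fold (log2 difference 0.99, SE 0.12, adjusted p = 2.67e-08) higher. It reached 161 and 174 CPM in shBeclin1 against 54.1 and 55.6 CPM in shNT libraries in the CM culture, 3.06-fold (log2 difference 1.61, SE 0.08, adjusted p = 1.83e-19) higher. Without GF it stood at 69.3 and 75.3 CPM in shBeclin1 against 12.9 and 11.3 CPM in shNT libraries, 5.99-fold (log2 difference 2.58, SE 0.10, adjusted p = 2.65e-23) higher. The groups did not overlap at any of these 3 points, and the difference was larger in the culture without GF than in the CM culture (interaction -0.97, adjusted p = 6.37e-08). Itga2, at 114833081 to 114932100 of chromosome 13 (GRCm38) and close to Itga1 at 114953096 to 115101964, stayed at 6.32 CPM or below. The CM culture had 4.76 and 6.32 CPM in shBeclin1 against 1.62 and 1.38 CPM in shNT libraries (adjusted p = 7.92e-07), while without GF the groups overlapped at 3.35 and 2.35 CPM in shNT and 1.99 and 2.38 CPM in shBeclin1 libraries. Itga10 and Itga11, the collagen receptor chains of cartilage and of fibroblasts, did not exceed 3.02 and 6.61 CPM. Itga10 was called higher in both day 10 cultures. Its call in the CM culture was lost without shNT replicate 1 (log2 difference 1.15) or shBeclin1 replicate 1 (1.05). Exons of other genes, chiefly Gm42957 on the same strand, cover 33.5% of its exon length. Itga11 was called lower in the CM culture (adjusted p = 0.03), a call lost without shNT replicate 2 (0.183) or shBeclin1 replicate 1 (0.308).

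The chains that bind the RGD motif of fibronectin and related proteins were higher in shBeclin1 libraries in most comparisons after day 0. Itga8 stood at 46.9 and 52.9 CPM in shBeclin1 against 15.8 and 18.7 CPM in shNT libraries at day 4, 103 and 104 CPM in shBeclin1 against 39.9 and 42.8 CPM in shNT libraries in the CM culture and 73.8 and 75.4 CPM in shBeclin1 against 28.7 and 25.7 CPM in shNT libraries without GF. The shBeclin1 libraries lay above the shNT libraries at all 3 points, by 2.89-fold (log2 difference 1.53, SE 0.10, adjusted p = 9.86e-15), 2.5-fold (adjusted p = 8.93e-16) and 2.75-fold (adjusted p = 1.73e-16). At day 0 Itga8 was near the lower end of its range, with 0.831 and 1.69 CPM in shNT and 1.56 and 1.47 CPM in shBeclin1 libraries and overlapping groups. The interaction of day 4 with day 0 was called (1.27, adjusted p = 0.00689) and was lost without shNT replicate 2 of day 0 (0.379).

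Itga5, with Itgb1 the main fibronectin receptor, changed sign between day 0 and day 4. At day 0 it stood at 68.4 and 69.3 CPM in shBeclin1 against 94.4 and 91.3 CPM in shNT libraries, 1.35-fold (log2 difference -0.43, SE 0.07, adjusted p = 3.71e-05) lower. At day 4 it stood at 77.8 and 72.3 CPM in shBeclin1 against 34.5 and 35.4 CPM in shNT libraries, 2.15-fold (log2 difference 1.10, SE 0.07, adjusted p = 2.48e-14) higher. The groups were apart in both, and the interaction test separated the points (1.53, adjusted p = 5.67e-14). The values 131 and 129 CPM in shBeclin1 against 125 and 123 CPM in shNT libraries in the CM culture gave no call (adjusted p = 0.429; 95% interval of the log2 difference -0.06 to 0.20). Without GF Itga5 stood at 89.9 and 88.4 CPM in shBeclin1 against 42 and 36 CPM in shNT libraries, 2.29-fold (log2 difference 1.19, SE 0.07, adjusted p = 6.14e-17) higher, and this difference was larger than that in the CM culture (interaction -1.12, adjusted p = 5.67e-12).

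Itgav, the alpha chain of the vitronectin receptors and of the integrins that release TGF-beta from its latent form, was not called at day 0 (63.5 and 76.9 CPM in shNT and 58.1 and 64.5 CPM in shBeclin1 libraries) or at day 4 (42.5 and 44.6 CPM in shNT and 46.4 and 45.5 CPM in shBeclin1 libraries). It was higher in the CM culture, at 288 and 281 CPM in shBeclin1 against 194 and 196 CPM in shNT libraries (log2 difference 0.54, SE 0.07, adjusted p = 1.1e-08), and without GF, at 95.3 and 98.9 CPM in shBeclin1 against 76.8 and 75.2 CPM in shNT libraries (log2 difference 0.35, SE 0.07, adjusted p = 6.06e-05). The groups did not overlap in either culture. Its beta partners did not move together. Itgb3 measured 101 and 110.4 CPM in shBeclin1 against 21.8 and 20.6 CPM in shNT libraries in the CM culture, 4.98-fold (log2 difference 2.32, SE 0.10, adjusted p = 6.68e-21) higher. Without GF it measured 45.9 and 57.6 CPM in shBeclin1 against 7.82 and 6.93 CPM in shNT libraries, 7.04-fold (log2 difference 2.82, SE 0.12, adjusted p = 2.26e-21) higher. These were the largest called rises after knockdown among members with more than 3 counts in each group, in the respective culture. At day 0 Itgb3 stood at 7.6 and 6.65 CPM in shNT and 5.53 and 7.12 CPM in shBeclin1 libraries and at day 4 at 0.209 and 0.269 CPM in shNT and 0.332 and 0.278 CPM in shBeclin1 libraries, with no call at either point.

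Itgb5, a vitronectin receptor chain, was not called at day 0, with 23.4 and 20.1 CPM in shNT and 26.4 and 25.1 CPM in shBeclin1 libraries. It stood at 77.3 and 77 CPM in shBeclin1 against 57.6 and 62 CPM in shNT libraries at day 4 (log2 difference 0.37, SE 0.07, adjusted p = 0.000161) and at 174 and 173 CPM in shBeclin1 against 124 and 134 CPM in shNT libraries in the CM culture (log2 difference 0.42, SE 0.06, adjusted p = 1.23e-06), with shBeclin1 libraries above shNT libraries at both points. Without GF the order was the other way, at 62.9 and 60.5 CPM in shBeclin1 against 72.8 and 68.9 CPM in shNT libraries (log2 difference -0.20, SE 0.07, adjusted p = 0.0158), a call lost without shNT replicate 1 (0.137) or shBeclin1 replicate 2 (0.0936). The interaction between the cultures was 0.62 (adjusted p = 2.01e-06). Itgb8, the chain that with Itgav activates TGF-beta in neural tissue, had at most 4.39 CPM at day 0, day 4 and in the CM culture, with no call. Without GF it stood at 8.2 and 13.3 CPM in shBeclin1 against 37.7 and 36.2 CPM in shNT libraries, 3.42-fold (log2 difference -1.77, SE 0.16, adjusted p = 8.71e-12) lower in shBeclin1 libraries. The summed level of 9 neural markers was 819 to 826 CPM in shNT and 115 to 121 CPM in shBeclin1 libraries of that culture. There 8 of them fell and 1, Pax6, rose. In the CM culture, where Itgb8 was not called, 7 fell and 0 rose, with sums of 163 to 164 against 108 to 111 CPM. The part of these markers in the result for Itgb8 was not tested.

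Itga2b, the platelet alpha chain that pairs with Itgb3, also marks early blood progenitors. It was not called at day 0 (2.24 and 3.01 CPM in shNT and 1.3 and 1.86 CPM in shBeclin1 libraries, adjusted p = 0.0719) and at day 4 (0.697 and 0.538 CPM in shNT and 1.06 and 1.06 CPM in shBeclin1 libraries, adjusted p = 0.192). It was higher in the CM culture, at 19.9 and 23.5 CPM in shBeclin1 against 11.5 and 10.3 CPM in shNT libraries (log2 difference 0.99, SE 0.15, adjusted p = 7.64e-07), and without GF, at 9.63 and 8.14 CPM in shBeclin1 against 2.98 and 2.92 CPM in shNT libraries (log2 difference 1.59, SE 0.19, adjusted p = 7.36e-09). The shBeclin1 libraries lay above the shNT libraries in both. The summed level of 8 megakaryocyte and platelet markers was 12.1 to 12.9 CPM in shNT and 38.8 to 48.5 CPM in shBeclin1 libraries of the CM culture, and 4.52 to 4.96 against 15.3 to 17 CPM without GF, with Gp1bb at 0 in shNT libraries of the former and Gp9 at 0 in shNT libraries of the latter. Of the 6 that were tested, 4 rose in each culture. Vwf, which endothelial cells also express, made up most of the first difference with a mean of 2.57 against 25.9 CPM, and Pf4 stood at 5.19 against 5.39 CPM there. The part of these markers in the results for Itga2b and Itgb3 was not tested.

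**Figure D4:**
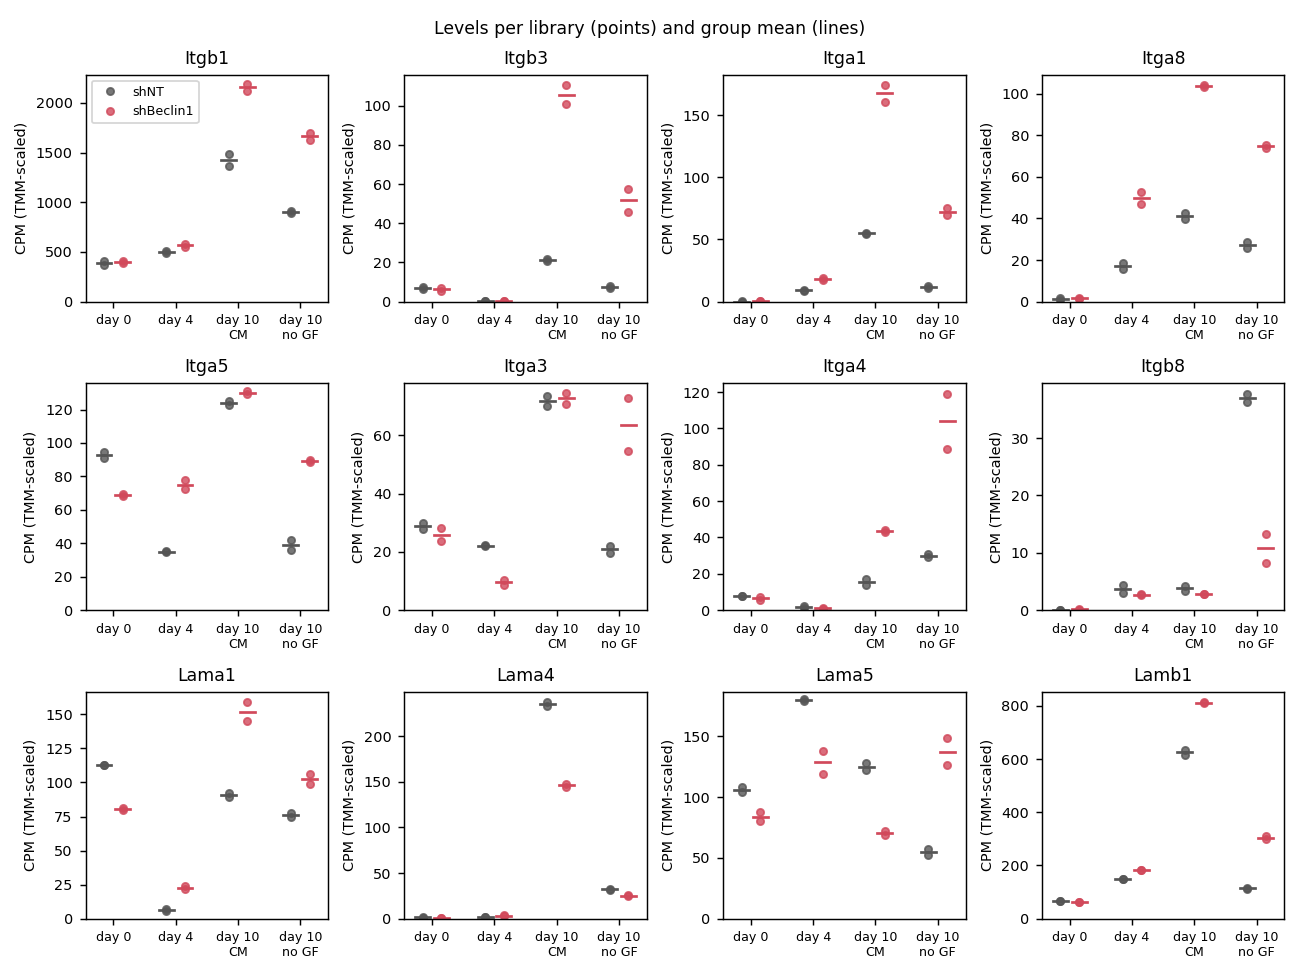
Level of 12 integrin and laminin genes in each library (points) with the group mean (lines), in TMM-scaled CPM, for shNT (grey) and shBeclin1 (red) at day 0, day 4, in the CM culture and without GF. Itgb3 and Itga1 stand highest in the shBeclin1 CM culture, Itgb8 in the shNT culture without GF, and Lama5 in shNT embryoid bodies.

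Itga4 and Itga9, relatives that both bind VCAM1, differed in the CM culture. Itga4 was not called at day 0 (7.92 and 7.91 CPM in shNT and 5.73 and 7.25 CPM in shBeclin1 libraries) or at day 4 (1.25 and 2.36 CPM in shNT and 0.598 and 1.45 CPM in shBeclin1 libraries). It was higher in shBeclin1 libraries of the CM culture, at 42.9 and 44.2 CPM in shBeclin1 against 17.1 and 13.9 CPM in shNT libraries, 2.79-fold (log2 difference 1.48, SE 0.16, adjusted p = 6.81e-07). Without GF it was also higher, at 88.7 and 119 CPM in shBeclin1 against 29 and 31 CPM in shNT libraries, 3.46-fold (log2 difference 1.79, SE 0.14, adjusted p = 9.13e-09). No shBeclin1 library of either culture overlapped the shNT libraries. Summed over 7 epicardial and mesothelial markers, the level was 23.8 to 24 against 51.7 to 56.5 CPM in the CM culture and 28.5 to 29 against 440.1 to 512 CPM without GF, shNT first. Of these markers, 4 rose and 1 fell in the CM culture, where Tbx18 went from a mean of 15.6 to 2.16 CPM. All 7 rose without GF. For 11 smooth muscle and fibroblast markers the summed level was 2116 to 2301 against 4420.4 to 4673 CPM and 2125 to 2138 against 4526 to 4779.5 CPM. The latter list did not move as a whole in either culture, with 6 rising and 3 falling in the CM culture and 7 rising and 3 falling without GF. Acta2 went from a mean of 119 to 1851 CPM in the CM culture and from 191 to 1488 CPM without GF, while Postn went from 137 to 24.9 CPM and from 254 to 37.6 CPM. The part of either marker list in the results for Itga1, Itga4 and Itga8 was not tested.

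Itga9, a receptor chain for tenascin C as well, was not called at day 0 (12.9 and 11.8 CPM in shNT and 13.7 and 13.5 CPM in shBeclin1 libraries) or at day 4 (10.7 and 8.75 CPM in shNT and 12.3 and 12 CPM in shBeclin1 libraries). It was lower in the CM culture, at 78.6 and 77.8 CPM in shBeclin1 against 102 and 102 CPM in shNT libraries (log2 difference -0.38, SE 0.08, adjusted p = 0.000178). Without GF it was higher, at 86.4 and 103 CPM in shBeclin1 against 47.6 and 40.9 CPM in shNT libraries (log2 difference 1.10, SE 0.08, adjusted p = 5.06e-14). The groups were apart in both cultures and the interaction was -1.48 (adjusted p = 4.7e-13). Itgb7, the lymphocyte beta chain that pairs with Itga4 and Itgae, was at its highest at day 0, with 14.3 and 12.3 CPM in shNT and 9.83 and 7.7 CPM in shBeclin1 libraries, and at 1.59 CPM or below in all later libraries. Its calls as lower at day 0 and in the CM culture were lost without 1 library. At day 0 these were shNT replicate 1 (adjusted p = 0.221) and shBeclin1 replicates 1 (0.059) and 2 (0.348), and in the CM culture each of the 4 (0.0538 to 0.222).

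Chains known from leukocytes were low throughout. Itgal, the alpha chain of the lymphocyte adhesion receptor LFA-1, stood at 5.05 and 5.4 CPM in shNT and 5.21 and 5.45 CPM in shBeclin1 libraries at day 0 and at 0.993 CPM or below later. Itgae reached 4.35 CPM at day 0, while Itgam, Itgad and Itgax did not exceed 1.02, 0.176 and 0.129 CPM. Itgb2, the common beta chain of Itgal, Itgam, Itgad and Itgax, had 20 counts in shBeclin1 and 2 in shNT libraries without GF. The ratio was 8.99-fold (95% counting interval 2.18 to 79.3), and the call of Itgb2 was lost without shNT replicate 1 (log2 difference 2.15). Itgal was called lower without GF (adjusted p = 0.0228), and this was lost without shNT replicate 1 (0.3) or shBeclin1 replicate 1 (0.151). Of 8 macrophage and leukocyte markers, no more than 2 reached 1 CPM in any group, and their summed level was 3.04 to 19.3 CPM over all libraries. Itgb6, the epithelial chain that was not tested, had at most 0.684 CPM. Exons of other genes, chiefly Gm49368, cover 68.7% of the exon length of Itgam. Such exons cover at most 8.0% of that of the tested members other than Itga10 and Itgam.

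Lama1 and Lama5 were the laminin genes called at all 4 points. Lama1 stood at 81.5 and 80.0 CPM in shBeclin1 against 113 and 113 CPM in shNT libraries at day 0, 1.4-fold (log2 difference -0.48, SE 0.07, adjusted p = 7.89e-06) lower. At day 4 it stood at 21.5 and 23.8 CPM in shBeclin1 against 5.3 and 6.93 CPM in shNT libraries, 3.7-fold (log2 difference 1.89, SE 0.12, adjusted p = 1.96e-15) higher. The CM culture had it at 145 and 159 CPM in shBeclin1 against 92.5 and 89.5 CPM in shNT libraries, 1.67-fold higher (adjusted p = 1.44e-11), and without GF at 98.5 and 106 CPM in shBeclin1 against 77.3 and 74.7 CPM in shNT libraries, 1.35-fold higher (adjusted p = 2.07e-06). Lower in shBeclin1 stem cells, Lama1 was thus higher at the later points, with groups apart at each. Its interaction of day 4 with day 0 was 2.37 (adjusted p = 1.41e-15) and that of the CM culture with day 4 was -1.15 (adjusted p = 2.6e-08).

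Lama5 was lower in shBeclin1 libraries at day 0, like Lama1, and lower at day 4 and in the CM culture, where Lama1 was higher. It stood at 87.7 and 80.1 CPM in shBeclin1 against 108 and 104 CPM in shNT libraries at day 0 (log2 difference -0.34, SE 0.08, adjusted p = 0.00266), a call lost without shBeclin1 replicate 2 (0.0961). In embryoid bodies it was lower, at 138 and 119 CPM in shBeclin1 against 180.4 and 179 CPM in shNT libraries (log2 difference -0.48, SE 0.07, adjusted p = 3.62e-06), and in the CM culture too, at 72.4 and 69.1 CPM in shBeclin1 against 122 and 128 CPM in shNT libraries (log2 difference -0.82, SE 0.08, adjusted p = 2.98e-11). Without GF it was 2.5-fold higher, at 149 and 126 CPM in shBeclin1 against 57.1 and 52.7 CPM in shNT libraries (log2 difference 1.32, SE 0.08, adjusted p = 8.35e-17). The groups were apart at all 4 points, and the interaction between the day 10 cultures was the strongest of the members by adjusted p (-2.15, SE 0.11, adjusted p = 7.31e-18).

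Lama4 changed sign between day 4 and day 10. At day 0 it was not called, with 1.66 and 1.19 CPM in shNT and 1.17 and 1.03 CPM in shBeclin1 libraries. In embryoid bodies it was low but higher after knockdown, at 2.79 and 3.51 CPM in shBeclin1 against 1.39 and 1.35 CPM in shNT libraries (log2 difference 1.21, SE 0.23, adjusted p = 9.17e-05). It was 1.61-fold lower in the CM culture, at 144 and 148 CPM in shBeclin1 against 233 and 237 CPM in shNT libraries (log2 difference -0.68, SE 0.06, adjusted p = 2.58e-11). Without GF it was also lower, at 24.7 and 25.7 CPM in shBeclin1 against 33 and 31.8 CPM in shNT libraries (log2 difference -0.36, SE 0.08, adjusted p = 0.000263). No groups overlapped at these 3 points, and the interaction of the CM culture with day 4 was -1.89 (adjusted p = 3.79e-08). The summed level of 9 endothelial markers was 1029.8 to 1042 CPM in shNT and 1054 to 1134 CPM in shBeclin1 libraries of the CM culture and 85.7 to 89.9 against 338 to 435 CPM without GF. Within that list 2 rose and 3 fell in the CM culture, Cldn5 from a mean of 34.8 to 15.8 CPM, Emcn from 90.9 to 68.3 CPM and Erg from 33.4 to 25.8 CPM, while all 9 rose without GF. Their part in the result for Lama4 was not tested.

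Lama2 and Lama3 were low before day 10. Lama2 was not called in the CM culture, with 15.1 and 14.8 CPM in shNT and 16.6 and 15.9 CPM in shBeclin1 libraries, and was higher without GF, at 32.2 and 32.1 CPM in shBeclin1 against 22.3 and 18.8 CPM in shNT libraries (log2 difference 0.65, SE 0.12, adjusted p = 2.18e-05). At day 0 and day 4 it had at most 0.641 CPM. Lama3, the alpha chain of epithelial anchoring laminin, was not called at day 0 (4.09 and 3.7 CPM in shNT and 4.36 and 4.62 CPM in shBeclin1 libraries) or day 4 (1.53 and 2.29 CPM in shNT and 1.39 and 0.668 CPM in shBeclin1 libraries). It was higher in the CM culture, at 33.1 and 29.5 CPM in shBeclin1 against 16.9 and 19.2 CPM in shNT libraries (log2 difference 0.80, SE 0.15, adjusted p = 4.67e-05), and without GF, at 5.18 and 8.09 CPM in shBeclin1 against 1.86 and 1.09 CPM in shNT libraries (log2 difference 2.19, SE 0.26, adjusted p = 8.23e-09). For both genes every called difference left the groups apart.

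Lamb1, the beta chain of most embryonic laminins, was not called at day 0, with 65.2 and 65.5 CPM in shNT and 61.8 and 61.9 CPM in shBeclin1 libraries (adjusted p = 0.477), and higher at the 3 later points. It stood at 182 and 183 CPM in shBeclin1 against 148 and 149.8 CPM in shNT libraries at day 4 (log2 difference 0.29, SE 0.06, adjusted p = 0.000278) and at 816 and 809 CPM in shBeclin1 against 617 and 633 CPM in shNT libraries in the CM culture (log2 difference 0.38, SE 0.06, adjusted p = 5.38e-07). Without GF the difference was widest, at 309 and 300.4 CPM in shBeclin1 against 117 and 113 CPM in shNT libraries, 2.64-fold (log2 difference 1.40, SE 0.06, adjusted p = 1.47e-21). The groups were apart at each of the 3, and the difference without GF exceeded that in the CM culture (interaction -1.02, adjusted p = 6.38e-13). Lamb2, the beta chain of neuromuscular and kidney basement membranes, was not called at day 0 (41.5 and 40.5 CPM in shNT and 38.1 and 31.6 CPM in shBeclin1 libraries) or day 4 (15.2 and 13.7 CPM in shNT and 13 and 12 CPM in shBeclin1 libraries). Its level in the CM culture was 84 and 82 CPM in shBeclin1 against 74.8 and 64.8 CPM in shNT libraries (adjusted p = 0.0108), a call lost with total counts as the scaling (0.126) and without shNT replicate 2 (0.249) or shBeclin1 replicate 1 (0.0711). Without GF it was higher, at 92.7 and 99.5 CPM in shBeclin1 against 62.7 and 61.5 CPM in shNT libraries (log2 difference 0.63, SE 0.08, adjusted p = 1.06e-08). Lamb3, the beta chain of epithelial anchoring laminin, stayed at 5.88 CPM or below and was called without GF alone among the knockdown comparisons (4.04 and 4.09 against 1.8 and 0.687 CPM, adjusted p = 1.03e-05).

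Lamc1, the gamma chain of nearly all basement membrane laminins, was not called at day 0, with 363 and 417 CPM in shNT and 398 and 385 CPM in shBeclin1 libraries and overlapping groups. At day 4 it was lower, at 126 and 121 CPM in shBeclin1 against 168 and 167 CPM in shNT libraries (log2 difference -0.44, SE 0.07, adjusted p = 4.92e-06), although Lamb1 was higher in the same libraries. In the CM culture it was higher, at 591 and 574 CPM in shBeclin1 against 459 and 461 CPM in shNT libraries (log2 difference 0.34, SE 0.06, adjusted p = 3.11e-05), and without GF more so, at 486 and 440.4 CPM in shBeclin1 against 164 and 159 CPM in shNT libraries, 2.87-fold (log2 difference 1.52, SE 0.07, adjusted p = 3.5e-21). Both steps were called by the interaction test, the CM culture against day 4 (0.78, adjusted p = 1.99e-08) and the CM culture against the culture without GF (-1.18, adjusted p = 3.44e-13). Lamc3 was lower in shBeclin1 libraries of both day 10 cultures by edgeR. It stood at 0.322 and 0.234 CPM in shBeclin1 against 2.01 and 1.86 CPM in shNT libraries in the CM culture (adjusted p = 2.26e-06). Without GF it stood at 1.2 and 1.67 CPM in shBeclin1 against 9.74 and 8.88 CPM in shNT libraries (adjusted p = 2.79e-11). Most of the neural markers given above were lower in both cultures too, and their part in the result for Lamc3 was not tested.

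Promoter sequences are printed for a choice of members that moved alike or in opposite ways after knockdown. Itga1, Itga8 and Lamb1 were each higher at day 4 and in both day 10 cultures. Lama5 was lower at 3 points and higher at the fourth. The choice leaves out Itgb1 and Lama1, which were also higher at day 4 and in both day 10 cultures. The RefSeq table of build GRCm38.p6 gives 250 bases before to 50 bases after each start that it lists. For some members, among them Itga9 and Lamb3, the start used lies well inside the gene. From it, 26 promoters of 23 of the 37 members were taken. No promoter of the other members, Lama3 among them, was used, and the 26 may not be every member promoter in that table. Sequences run 5′ to 3′ on the gene's strand, and capitals mark the GC box letters GGGCGG, the core that Sp1 proteins bind, or their reverse complement.
Itga1, chr13:115101915-115102214, minus strand: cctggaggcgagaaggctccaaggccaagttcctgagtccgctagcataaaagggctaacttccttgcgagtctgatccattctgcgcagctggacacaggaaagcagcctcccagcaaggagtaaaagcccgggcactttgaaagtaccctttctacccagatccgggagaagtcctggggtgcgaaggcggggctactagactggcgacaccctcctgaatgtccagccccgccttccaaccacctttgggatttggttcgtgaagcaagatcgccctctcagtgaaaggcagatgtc
Itga8, chr2:12301895-12302194, minus strand: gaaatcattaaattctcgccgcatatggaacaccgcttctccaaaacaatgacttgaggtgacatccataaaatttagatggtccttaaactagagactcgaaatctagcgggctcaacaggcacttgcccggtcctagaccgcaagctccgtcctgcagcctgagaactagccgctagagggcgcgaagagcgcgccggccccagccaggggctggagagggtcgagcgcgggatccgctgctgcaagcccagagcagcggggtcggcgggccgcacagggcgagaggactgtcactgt
Lamb1, chr12:31265043-31265342, plus strand: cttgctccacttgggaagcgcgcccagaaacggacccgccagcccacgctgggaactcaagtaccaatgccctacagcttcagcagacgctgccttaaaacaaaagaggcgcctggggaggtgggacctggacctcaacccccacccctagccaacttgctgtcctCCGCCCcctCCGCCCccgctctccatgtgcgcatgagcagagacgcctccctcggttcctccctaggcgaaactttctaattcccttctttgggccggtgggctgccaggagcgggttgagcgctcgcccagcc
Lama5, chr2:180225810-180226109, minus strand: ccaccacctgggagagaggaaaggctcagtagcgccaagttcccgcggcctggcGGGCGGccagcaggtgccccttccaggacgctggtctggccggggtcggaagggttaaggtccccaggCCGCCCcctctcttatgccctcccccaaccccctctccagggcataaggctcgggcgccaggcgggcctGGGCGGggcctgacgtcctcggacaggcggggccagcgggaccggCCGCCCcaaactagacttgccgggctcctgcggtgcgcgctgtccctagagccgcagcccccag
The 300 bases of Lama5 hold 4 GC boxes and those of Lamb1 hold 2, while those of Itga1 and Itga8 hold none in these letters. The promoter of Itgb1, not printed, holds 1, and no promoter of Lama1 was among those used. Over both strands, GGGCGG was found in 12 of the 26 member promoters, against 35.7% of 32851 promoters in the table. The GATA factor motif AGATAA was found in 1 of the 26, that of Itgax, against 11.2% of all promoters. The AP-1 motif TGACTCA was found in 2, those of Itga9 and Itgax, against 5.2%. The TCF/LEF motif CTTTGAT was found in 0, against 3.73%. A match is a run of letters and was not tied to binding in these data.

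The CM culture was compared with the culture labelled without GF within each hairpin, to see how these genes differ between the day 10 groups. A batch cannot be told apart from the culture in this comparison. In shNT libraries 22 members were higher in the CM culture than without GF and 5 were lower, with 52.8% of all tested genes called (26.9% higher, 25.9% lower), and the members' median log2 difference was 1.18 against 0. In shBeclin1 libraries 18 were higher and 8 lower, with 37.0% of all tested genes called (20.3% higher, 16.7% lower), and the median was 0.51 against 0. With total counts as the scaling, the higher share of all called genes in shBeclin1 went from 54.9 to 42.2%, with 27 members called. Lama4 was higher in the CM culture under both hairpins, 7.26-fold in shNT and 5.8-fold in shBeclin1 libraries (adjusted p = 9.71e-28 and 1.42e-25). Beside it, the summed endothelial markers were 1029.8 to 1042 against 85.7 to 89.9 CPM in shNT and 1054 to 1134 against 338 to 435 CPM in shBeclin1 libraries, and their part in the result was not tested. Lamb1 was 5.42-fold and 2.67-fold higher in the CM culture. Lama3 was 12.3-fold and 4.67-fold higher. Itga4, Itgb8, Lama2 and Lamc3 were lower in the CM culture under both hairpins, with Itgb8 9.63-fold and 3.79-fold lower. Lama2 in shNT lost its call without replicate 1 of the culture without GF (adjusted p = 0.103).

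Some chains differed between the cultures in one direction under shNT and in the other under shBeclin1. Lama5 was 2.28-fold higher in the CM culture in shNT (log2 difference 1.19, SE 0.08) and 1.94-fold lower in shBeclin1 libraries (-0.96, SE 0.08). Itga9 was 2.3-fold higher in shNT and 1.21-fold lower in shBeclin1 libraries, the latter call lost without shBeclin1 replicate 2 of the culture without GF (adjusted p = 0.243). Itga2 was lower in shNT (adjusted p = 0.0106) and higher in shBeclin1 libraries (adjusted p = 8.94e-05), the former lost without shNT replicate 2 of the CM culture (0.069) or shNT replicate 1 of the culture without GF (0.176). In all, 21 members had a knockdown difference that differed between the day 10 cultures by the interaction test, 4 more positive in the CM culture and 17 more negative, with 34.4% of all tested genes called (16.2% higher, 18.2% lower). Both cultures' comparisons share the day 10 libraries with the knockdown comparisons above and are the same data read the other way.

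**Figure D5:**
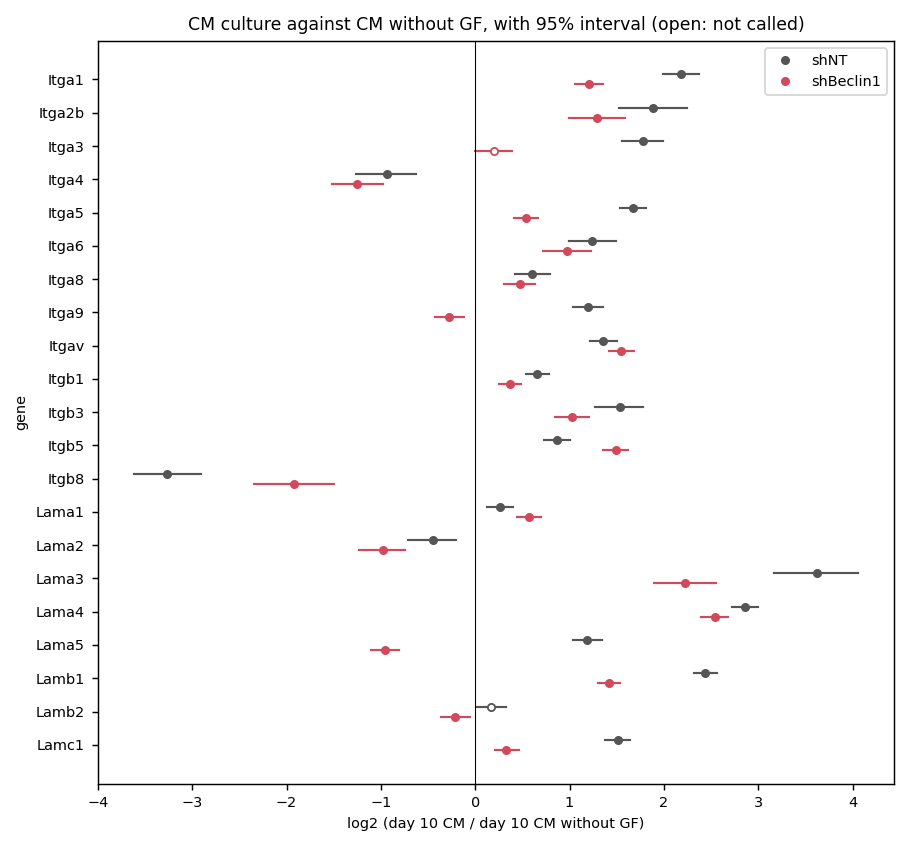
Difference between the CM culture and the culture without GF for 21 integrin and laminin genes, as log2 ratio with its 95% interval from the edgeR fit, in shNT (grey) and shBeclin1 (red) libraries; open points were not called. Lama4 and Lamb1 lie to the right of 0 under both hairpins, Itgb8 to the left under both, and Lama5 and Itga9 on opposite sides.

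The knockdown differences at day 4 and day 0 differed for 8 members, 6 more positive at day 4 and 2 more negative, with 14.8% of all tested genes called (7.93% higher, 6.89% lower). Between the CM culture and day 4 they differed for 18 members, 11 more positive and 7 more negative, with 26.1% called over all genes (12.2% higher, 13.9% lower).

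Genes that act with integrins and laminins were read from 3 lists, with named genes given as mean ± SD of 2 libraries, shBeclin1 first. Of 29 integrin adaptors and kinases, which link integrin tails to actin and signalling, none rose and 3 fell at day 0, 7 rose and 4 fell at day 4, 19 rose and 3 fell in the CM culture, and 26 rose and 1 fell without GF. Over all tested genes, 5.79% were higher and 7.55% lower at day 0, 10.7 and 10.1% at day 4, 19.2 and 19.1% in the CM culture, and 27.3 and 27.3% without GF. The median log2 difference of the list was -0.17, 0.14, 0.46 and 0.96 in that order, against -0.01, 0.02, -0.02 and -0.01 over all tested genes. Tns2 and Tns1, tensins that bind integrin tails, were lower at day 0 (Tns2 3.16 ± 0.424 against 6.21 ± 0.527 CPM, adjusted p = 0.000254). At day 4 the parvin gene Parvb was higher, at 39.5 ± 1.23 against 24.8 ± 2.5 CPM, adjusted p = 3.39e-07, as were Actn1 and Kank1. In the CM culture Tln2, a talin of muscle and brain, was lower, at 19.2 ± 0.439 against 78.5 ± 1.16 CPM, adjusted p = 6.58e-21, while Parva and Parvb were higher. Without GF Tln1, the widespread talin that switches integrins on, was higher, at 232 ± 19.3 against 77.8 ± 1.63 CPM, adjusted p = 6.52e-22, with Tns1 and Zyx.

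Of 20 basement membrane partners, 2 rose and 6 fell at day 0, 3 rose and 6 fell at day 4, 10 rose and 2 fell in the CM culture, and 13 rose and 4 fell without GF, while 13.3, 20.8, 38.4 and 54.7% of all tested genes were called in that order. Col4a1 and Col4a2, the main collagen IV chains, were lower in shBeclin1 stem cells (Col4a2 19.4 ± 0.615 against 32.9 ± 1.15 CPM, adjusted p = 1.02e-07) and higher in embryoid bodies (Col4a2 60.6 ± 0.654 against 26.3 ± 2.44 CPM, adjusted p = 4.86e-15), as was Lama1. Col4a5 and Col4a6 were higher in the CM culture, Col4a6 at 149.6 ± 9.33 against 14.4 ± 0.985 CPM, adjusted p = 1.01e-24, where Frem2, a chain of the Fraser complex under epithelia, was lower, at 32 ± 3.98 against 139 ± 1.03 CPM, adjusted p = 2.82e-23. Without GF Nid2, Fras1 and Hspg2 were higher. Fras1, which anchors epithelia with Frem2, stood at 409 ± 12.6 against 51.1 ± 8.45 CPM, adjusted p = 9.36e-27. Nid2, a nidogen that bridges laminin and collagen IV, stood at 375 ± 3.62 against 67.6 ± 0.365 CPM, adjusted p = 5.42e-28.

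Of 18 other integrin ligands, 2 rose and 6 fell at day 0, 4 rose and 6 fell at day 4, 9 rose and 5 fell in the CM culture, and 10 rose and 4 fell without GF, beside the same shares of all tested genes (13.3, 20.8, 38.4 and 54.7%). Fn1, fibronectin, was higher at day 4, at 2469.6 ± 62.7 against 641 ± 3.61 CPM, adjusted p = 4.94e-23, where its receptor chain Itga5 was higher too. Spp1, osteopontin, was lower at day 4, in the CM culture (3.8 ± 0.00415 against 57.1 ± 2.72 CPM, adjusted p = 5.41e-27) and without GF. Vtn, vitronectin, was lower in the culture without GF, at 5.07 ± 0.405 against 131 ± 9.05 CPM, adjusted p = 1.22e-23 by edgeR. It was also lower in the CM culture, at 0.0878 ± 0.124 against 19.8 ± 1.28 CPM, adjusted p = 7.59e-19 by edgeR. Of its receptor chains, Itgav and Itgb3 were higher in both cultures, while Itgb5 was lower without GF and higher in the CM culture. Tnc, tenascin C and a ligand of Itga9, was higher without GF, at 474 ± 59.7 against 24.5 ± 0.889 CPM, adjusted p = 1.41e-28.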

How the data were processed

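RNA was sequenced from 16 libraries, whose kits, per the labels, deplete rRNA and keep strand. The molecule tag of the same labels reads polyA RNA, and which of these holds is not settled here. Raw counts by gene symbol were deposited as 1 table, and every count column was assigned to a library by its title. Per the submitters' processing notes, Trimmomatic 0.36, featureCounts, Subread 1.5.1 and SAMtools were used with mm10; the aligner, the annotation and any use of strand were not given in the sources used here. Of 54052 entries, 18471 were 0 in all libraries, and 959 had a repeated symbol and were kept apart; none of these was a member. The counts of members include 1 that is not reported here.

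The software was R 4.3.3 with edgeR 4.0.16: filterByExpr left 19141 genes, libraries were scaled with TMM (factors 0.884 to 1.078), and a robust quasi-likelihood model with 1 mean per group was fitted to all 16 libraries (8 residual degrees of freedom, common biological coefficient of variation 5.4%). The fit was tested on simulated data. A gene is called when its Benjamini-Hochberg adjusted p over all genes tested is under 0.05. "Rose", "fell", "higher" and "lower" are used of called genes. The standard error is the log2 difference over the root of F, and its 95% interval is normal. Ratios with 3 or fewer counts in a group carry exact counting intervals, which cover counting error only. Per-library values are given for members called in a knockdown comparison with a mean of at least 5 CPM. They are also given for some called members below that mean, such as Itga7, Itgb4, Itgb7 and Lamc3. List genes were taken by the 3 smallest adjusted p in each knockdown comparison. Exon lengths and positions come from GENCODE vM21 on GRCm38. Alternatives were DESeq2 1.42.0 as test and as scaling, total counts, other low count filters (none, and a mean of at least 1 CPM), a replicate block, the compared groups alone, and leaving out each library. The members, lists and markers were chosen with earlier results of these data known.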

Additional observations from a re-analysis of the deposited data

Results flagged for a closer look

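Knockdown differences that differed between conditions by edgeR's interaction test, at a Benjamini-Hochberg adjusted p under 0.05, are given as values with no explanation. Each value is a difference of log2 differences between shBeclin1 and shNT libraries. Groups of 2 libraries are too small for a check of single outlying samples.

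Between the CM culture and the culture without GF (the former minus the latter), 21 members were called. Values were negative, for a knockdown difference that was lower in the CM culture, for Lama5 (-2.15), Itga3 (-1.58), Itga9 (-1.48), Lama3 (-1.39), Lamc1 (-1.18), Itga5 (-1.12), Lamb1 (-1.02) and Itga1 (-0.97), none of which lost its call without 1 library. They were positive for Itga2 (2.24), Itgb8 (1.35) and Itgb5 (0.62), likewise held without any 1 library. The other calls each ended on leaving out some library, with the adjusted p in parentheses after its name. Itgb2 (-2.46) was lost without any 1 library other than CM shBeclin1 replicate 2 or no-GF shNT replicate 2 (0.0687 to 0.28), Itgb4 (-1.39) without no-GF shNT replicate 2 (0.0502) and Lamb3 (-1.30) without CM shNT replicate 1 (0.0671), CM shBeclin1 replicate 2 (0.0541) or no-GF shNT replicate 2 (0.215). Lama2 (-0.53) was lost without CM shNT replicate 1 (0.0563), CM shBeclin1 replicate 2 (0.0748) or no-GF shNT replicate 2 (0.119). Itgb3 (-0.50) was lost without CM shBeclin1 replicate 1 (0.0651), no-GF shNT replicate 2 (0.0951) or no-GF shBeclin1 replicate 2 (0.126). Lamb2 (-0.38) was lost without CM shNT replicate 1 (0.0679), Lama4 (-0.32) without CM shBeclin1 replicate 1 (0.0542), no-GF shNT replicate 2 (0.0505) or no-GF shBeclin1 replicate 2 (0.0544), Lama1 (0.31) without CM shBeclin1 replicate 2 (0.104) or no-GF shNT replicate 1 (0.0548) and Itgb1 (-0.29) without CM shNT replicate 2 (0.0869).

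Between the CM culture and day 4 (the former minus the latter), 18 members were called. Held without any 1 library were Itga7 (2.81), Lama3 (1.73), Itga3 (1.25), Lamc1 (0.78), Itga1 (0.62), Itgav (0.47) and Itgb1 (0.42), with positive values. With negative values, Lama4 (-1.89), Lama1 (-1.15), Itga5 (-1.03) and Itga9 (-0.70) were also held. Itga4 (2.25) was lost without day 4 shNT replicate 2 (0.0632) and Lamb2 (0.46) without day 4 shNT replicate 1 (0.11), day 4 shBeclin1 replicate 2 (0.0912) or CM shNT replicate 2 (0.0735). Lamb3 (1.80) was lost without any 1 of the 8 libraries (0.0621 to 0.145). Lama5 (-0.34) was lost without day 4 shBeclin1 replicate 1 (0.156), CM shNT replicate 2 (0.0583) or CM shBeclin1 replicate 2 (0.069). Itgb7 (-1.89) was lost without any 1 library other than day 4 shNT replicate 1, day 4 shBeclin1 replicate 2 or CM shBeclin1 replicate 2 (0.0549 to 0.14). Lamc3 (-3.55) rests on 4 and 2 counts at day 4 and was lost without any 1 library other than day 4 shBeclin1 replicate 2, CM shNT replicate 2 or CM shBeclin1 replicate 1 (0.0551 to 0.445).

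Between day 4 and day 0, 8 members were called. Lama1 (2.37), Itga5 (1.53), Lamb1 (0.37), Lamc1 (-0.44) and Itga3 (-1.07) were held without any 1 library. Lama4 (1.58) was lost without day 0 shNT replicate 1 (0.0617), Itga8 (1.27) without day 0 shNT replicate 2 (0.379), and Itga2b (1.5) without any 1 library other than day 0 shNT replicate 1 or day 0 shBeclin1 replicate 2 (0.0634 to 0.146).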

How the results depend on the processing

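Of 2675 log2 differences of members recomputed under the alternatives, 2516 kept their direction and side of the threshold, 159 kept their direction but were no longer called, 126 of these without 1 library, and 0 changed sign among the called. Of 227 calls, 179 held under every alternative. Calls over all genes at day 0 numbered 2555, against 1241 in a fit of the compared groups alone, 1693 with DESeq2, and 920 to 3011 when 1 library was left out. Members called at day 0 numbered 6, against 3 to 7 without 1 library. Calls over all genes at day 4 numbered 3975, against 2514 to 2644 without 1 library. The cause of these moves was not tested, beyond the fewer samples in those fits. The replicate numbers did not pair the libraries: the correlation of replicate differences between compared groups was -0.03 to 0.03 over 15281 genes. With the replicate number as a block, 7 members were called at day 0, 12 at day 4, 25 in the CM culture and 28 without GF, and all gene calls numbered 2641, 4070, 7372 and 10474. Itgb4 at day 4 (adjusted p = 0.0512) and the interaction of Itgb2 between the day 10 cultures (0.0538) were lost under it. Itgad, Itgax and Itgb6 were too low to be tested, and a knockdown difference of Lama2 or Lamc3 at day 4, on 1 to 4 counts per group, was not detectable at this depth.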
